A study of Mus musculus with 2 samples.

Results

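The genes described here are the subunits of the receptors for GABA and glutamate, chosen by gene symbol alone: the names Gabra, Gabrb, Gabrg, Gabrd, Gabre, Gabrp, Gabrq and Gabrr (GABA-A receptor), Gabbr (GABA-B receptor), Gria, Grid, Grik and Grin (ionotropic glutamate receptor) and Grm (metabotropic glutamate receptor). The rule took 47 of the 32285 genes in the count tables, namely 19 GABA-A, 2 GABA-B, 4 AMPA, 2 delta, 5 kainate, 7 NMDA and 8 metabotropic glutamate receptor genes. They were measured by droplet single-cell RNA sequencing (10x Genomics 3′ chemistry) of dissociated mouse dorsal root ganglia (DRG) pooled over all axial levels at postnatal day 4. There were 2 groups of 1 library each. The cKO library came from Dhh CRE+, Ptges3 flox/flox mice and the flox library from Ptges3 flox/flox mice, with no Cre named, so both share the floxed Ptges3 alleles. Dhh-Cre is a driver used for the Schwann cell lineage, and Ptges3 encodes the HSP90 cochaperone p23. The sources used here do not give how many animals entered each library. With 1 library a group the differences between genotypes have no replicate check: no test was possible, and each interval, given in square brackets, is a 95% interval that covers counting error only.

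GABA-A receptors are pentameric chloride channels assembled from alpha, beta and gamma or related subunits, while GABA-B receptors are G protein-coupled pairs of Gabbr1 and Gabbr2 products. Glutamate opens AMPA, kainate and NMDA receptor channels and also acts on metabotropic receptors that signal through G proteins. DRG neurons receive no classical synapses on their cell bodies but carry these receptors on the soma and on their central terminals. There GABA-A receptors give primary afferent depolarisation, and kainate, NMDA and metabotropic receptors tune transmitter release. Satellite glia wrap the neuron bodies, and Schwann cells ensheathe or myelinate the axons.

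The sequences that bear on the findings come from 4 neighbouring GABA-A genes of chromosome 5. Their levels were high together in 1 of the neuron gates with Nefh, that of Ntrk2 or Ntrk3 with Nefh, and in astrocyte-gated cells. Gabrg1 (chr5:70751047-70842617, minus strand), Gabra2 (chr5:70957597-71095849, minus), Gabra4 (chr5:71569749-71658308, minus) and Gabrb1 (chr5:71658113-72149037, plus) lie next to each other in the GENCODE M21 annotation of GRCm38, the same assembly as mm10. In RefSeq, whose starts can differ from those of GENCODE and which gave the windows below, the start of Gabra4 and the first start of Gabrb1 are 387 bases apart on opposite strands, where the genes overlap. A second RefSeq start of Gabrb1 lies 42011 bases from the first. Each line below is the window of 300 bases from 250 before to 50 after a start, 5′ to 3′ on the gene's strand, taken from RefSeq on GRCm38.p6, which gave a window for 32 of the 47 members.
Gabrg1, chr5:70842568-70842867, minus strand: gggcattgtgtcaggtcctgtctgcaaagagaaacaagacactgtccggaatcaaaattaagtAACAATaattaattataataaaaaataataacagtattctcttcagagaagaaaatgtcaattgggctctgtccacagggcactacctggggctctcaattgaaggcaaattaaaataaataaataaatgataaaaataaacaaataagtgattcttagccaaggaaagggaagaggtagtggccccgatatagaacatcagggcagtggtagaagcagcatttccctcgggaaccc
Gabra2, chr5:71095800-71096099, minus strand: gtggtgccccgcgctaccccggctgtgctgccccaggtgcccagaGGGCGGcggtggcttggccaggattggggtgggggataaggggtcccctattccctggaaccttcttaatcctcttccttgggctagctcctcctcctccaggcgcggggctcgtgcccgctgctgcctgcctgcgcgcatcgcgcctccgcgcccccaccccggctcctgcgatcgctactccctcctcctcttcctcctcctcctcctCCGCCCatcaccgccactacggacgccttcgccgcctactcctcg
Gabra4, chr5:71658259-71658558, minus strand: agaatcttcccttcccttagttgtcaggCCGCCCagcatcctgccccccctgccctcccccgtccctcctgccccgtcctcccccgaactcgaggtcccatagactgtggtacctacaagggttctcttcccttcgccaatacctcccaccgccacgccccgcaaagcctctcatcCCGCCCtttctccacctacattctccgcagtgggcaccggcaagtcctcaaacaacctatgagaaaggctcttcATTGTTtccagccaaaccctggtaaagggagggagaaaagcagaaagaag
Gabrb1 first start, chr5:71657671-71657970, plus strand: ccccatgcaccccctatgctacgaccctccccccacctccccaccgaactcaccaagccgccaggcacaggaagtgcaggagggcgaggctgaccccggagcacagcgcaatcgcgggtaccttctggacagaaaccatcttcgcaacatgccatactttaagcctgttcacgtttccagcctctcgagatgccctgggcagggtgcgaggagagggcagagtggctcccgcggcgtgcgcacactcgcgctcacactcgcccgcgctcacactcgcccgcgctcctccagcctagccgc
Gabrb1 second start, chr5:71699682-71699981, plus strand: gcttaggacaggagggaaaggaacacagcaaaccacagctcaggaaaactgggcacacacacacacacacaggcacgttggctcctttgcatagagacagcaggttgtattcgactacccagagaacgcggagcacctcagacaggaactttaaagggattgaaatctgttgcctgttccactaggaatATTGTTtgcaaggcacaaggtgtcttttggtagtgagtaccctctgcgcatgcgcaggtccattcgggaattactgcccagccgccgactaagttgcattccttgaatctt
Capitals mark 3 motifs searched on both strands, none overlapping another in these windows. The SOX-type core, AACAAT, is in 10.7% of the 32851 promoter windows of the same length. The GC box, GGGCGG, is in 35.7% of them. The TATA box, TATAAA, is in 13.6%. AACAAT stood once in the windows of Gabrg1, Gabra4 and the second Gabrb1 start, and GGGCGG stood in 2 copies each in those of Gabra2 and Gabra4. TATAAA was in none of the 5. The Gabrg1 window had the least G and C, 38.3%, with 3 CG dinucleotides. The windows of Gabra2 and the first Gabrb1 start had 25 CG dinucleotides each, at 70.0% G and C for Gabra2 and 66.0% for Gabrb1. Gabra4 had 12 at 58.7%, and the second Gabrb1 start had 9 at 50.3%. These matches are letters in a window and say nothing of binding.

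After filtering, 7866 cKO and 8107 flox cells remained, with 4319.5 and 6886 median unique molecular identifiers (UMIs, counted mRNA molecules) per cell in cKO and flox. Cells were gated by marker genes that include no receptor gene. Neurons numbered 3023 in cKO and 1480 in flox, with medians of 9458 and 47503 UMIs in cKO and flox, and 1552 cKO and 199 flox neurons had under 10000 UMIs. Neurons were split by their markers into gates named here by genes. The gates of unmyelinated and small-fibre types were Mrgprd (420 cKO and 472 flox cells), Th, Slc17a8 or Tafa4 (here the Slc17a8 Tafa4 gate, 51 cKO and 139 flox), Sst, Nppb or Nts (here the Nts gate, 18 cKO and 17 flox) and Calca with Tac1 (694 cKO and 185 flox). The gates with large-fibre markers were Calca with Nefh but no Tac1 (the Calca Nefh gate, 136 cKO and 55 flox), Ntrk2 or Ntrk3 with Nefh (the Ntrk Nefh gate, 140 cKO and 89 flox) and Pvalb with Ntrk3 (39 cKO and 33 flox). In no gate were 1525 cKO and 490 flox neurons. The Slc17a8 Tafa4 gate is named for the genes that were high in it, Slc17a8 at 54.3 CPM in cKO and 53.6 in flox and Tafa4 at 364 CPM in cKO and 402 in flox. Its Th level, 7.12 CPM in cKO and 6.04 in flox, was not above that of the Calca Tac1 gate, 8.14 CPM in cKO and 15.1 in flox. The Nts gate had Nts at 478 CPM in cKO and 508 in flox but few UMIs of the other genes of its rule, with Nppb at 7.58 CPM in cKO and 16.4 in flox and 0 cKO and 1 flox UMIs of Sst. Glia numbered 2252 in cKO and 3445 in flox, and the flox library also held cells gated as oligodendrocyte, oligodendrocyte precursor (OPC) and astrocyte, cell types of the central nervous system, of which cKO had 1 cell. A further 17 cKO and 10 flox neurons with few peripheral neuron markers were left out. Ptges3 itself stood at 126 CPM in cKO and 251 in flox in glia and at 393 CPM in cKO and 277 in flox in neurons, thus lower in cKO in glia and higher in cKO in neurons. The libraries shared 23 cell barcodes, 16 of them among the retained cells.

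Levels are UMIs per 1000000 UMIs of the gate (CPM) from summed counts. These 3′ counts are not divided by transcript length, so levels are compared between cells and libraries, not between genes. A member was taken as measured where both libraries together gave at least 50 UMIs, which held for 34 of the 47 members in neurons and 13 in glia. In neurons the 34 were 12 GABA-A genes, both GABA-B genes, all 4 AMPA, both delta and all 5 kainate genes, 4 NMDA genes and 5 metabotropic genes. The other 13 included Gabrb2, Gabre, Gabrq, Gabrp, Gabra6, Gabrr2, Gabrr3, Grin2b, Grin2c, Grin3b, Grm2 and Grm6. Of these, Gabra6 had 0 UMIs in both neuron groups and the most counted, Gabrb2, had 18 UMIs in cKO and 17 in flox. To compare gates, each gate's level was set against all other gated neurons of the same library, and a member measured in both libraries (27 were) was called higher or lower where the log2 ratio passed 1 in both. Such calls rest on size alone. Each gate is part of the reference of the others, so calls and counts of different gates are not independent. The Mrgprd gate gave the most UMIs of the gates, 15331577 in cKO and 24973836 in flox, and so weighs most in the reference of the others.

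Of the kainate receptor genes, Grik1 was high in the Mrgprd and Slc17a8 Tafa4 gates and low in the rest. Grik1, which encodes the pore-forming subunit GluK1, stood at 871 CPM in cKO and 952 in flox in the Mrgprd gate and at 795 CPM in cKO and 973 in flox in the Slc17a8 Tafa4 gate. In the Ntrk Nefh gate it stood at 64.3 CPM in cKO and 48.4 in flox, the lowest Grik1 level of the gates in both libraries. The Mrgprd gate exceeded the other gated neurons by log2 2.10 [2.04, 2.15] in cKO and 1.73 [1.69, 1.76] in flox. After thinning every neuron to 10000 UMIs, 99.2% of cKO and 100.0% of flox cells of the Mrgprd gate had a Grik1 UMI. In the Ntrk Nefh gate 35.9% of cKO and 28.6% of flox cells had one. Fibroblasts are set beside neurons here and below, and their counts can hold free RNA as well as RNA of their own. They had a Grik1 UMI in 5.86% of cKO and 6.73% of flox cells without thinning, at median depths of 4704 UMIs in cKO and 6796.5 in flox. The gates between these extremes included Calca Nefh at 141 CPM in cKO and 60.4 in flox, Calca Tac1 at 172 CPM in cKO and 96.8 in flox and Pvalb at 218 CPM in cKO and 108 in flox.

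Grik5, whose product joins other kainate subunits to form high-affinity channels, was called in no gate. It stood at 38.0 CPM in cKO and 35.0 in flox in the Mrgprd gate and at 52.4 CPM in cKO and 56.0 in flox in the Ntrk Nefh gate. Grik4, which encodes a similar partner, was at 15.3 CPM in cKO and 21.3 in flox in the Ntrk Nefh gate and was called lower in the Pvalb gate, at 12.3 CPM in cKO and 5.90 in flox. Grik2 stood at 1.04 CPM in cKO and 1.24 in flox in the Mrgprd gate, 5.19 CPM in cKO and 4.55 in flox in the Ntrk Nefh gate and 11.4 CPM in cKO and 9.27 in flox in the Pvalb gate. It was called lower in the first of these gates and higher in the other two. In the Slc17a8 Tafa4 gate Grik2 stood at 2.59 CPM in cKO and 0.345 in flox, from 4 cKO and 2 flox UMIs. Grik3 was scarce in neurons, with 79 UMIs in cKO and 74 in flox in all.

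Several GABA-A subunit genes were called higher in the Ntrk Nefh gate, whose genes mark large myelinated mechanoreceptors. They included all 4 genes of the chromosome 5 neighbourhood. Gabrg1 stood at 18.4 CPM in cKO and 14.9 in flox there and at 0.587 CPM in cKO and 0.160 in flox in the Mrgprd gate, and its excess over the other gates was log2 4.35 in cKO and 4.27 in flox. Gabra4 was at 9.22 CPM in cKO and 10.9 in flox, an excess of log2 3.41 in cKO and 3.74 in flox. Gabra2 was at 48.4 CPM in cKO and 37.9 in flox (excess 1.90 in cKO and 1.11 in flox). Gabrb1 was at 17.9 CPM in cKO and 24.4 in flox (excess 1.94 in cKO and 1.74 in flox). Gabrg1 UMIs sat in few cells even here: 12.0% of cKO and 13.1% of flox cells after thinning, against none of the unthinned fibroblasts (upper bounds 0.327% in cKO and 0.302% in flox). The genes did not move as a block elsewhere, for the Slc17a8 Tafa4 gate was called higher in Gabrb1 alone, at 13.6 CPM in cKO and 20.4 in flox. Gabra4 and Gabrb1 overlap on opposite strands, and the sources used here do not say whether the counting used strand.

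Other alpha and gamma genes divided between gates. Gabra5, whose product is known from extrasynaptic receptors, was called higher in all 3 gates with large-fibre markers. It stood at 18.7 CPM in cKO and 15.7 in flox in the Ntrk Nefh gate, and was called lower in the Mrgprd gate, at 2.28 CPM in cKO and 1.56 in flox, and in the Slc17a8 Tafa4 gate. Gabrg3 and Gabra3 were called higher in the Calca Tac1 gate instead. Gabrg3 stood at 19.1 CPM in cKO and 36.4 in flox there, against 1.83 CPM in cKO and 1.36 in flox in the Mrgprd gate. Gabra3 stood at 7.82 CPM in cKO and 11.1 in flox there, against 0.391 CPM in cKO and 0.240 in flox in the Mrgprd gate. Gabrd, of extrasynaptic receptors, and the rho gene Gabrr1 were near the limit of measurement. All neurons gave 34 UMIs in cKO and 95 in flox for Gabrd, and 35 UMIs in cKO and 56 in flox for Gabrr1.

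**Figure D1:**
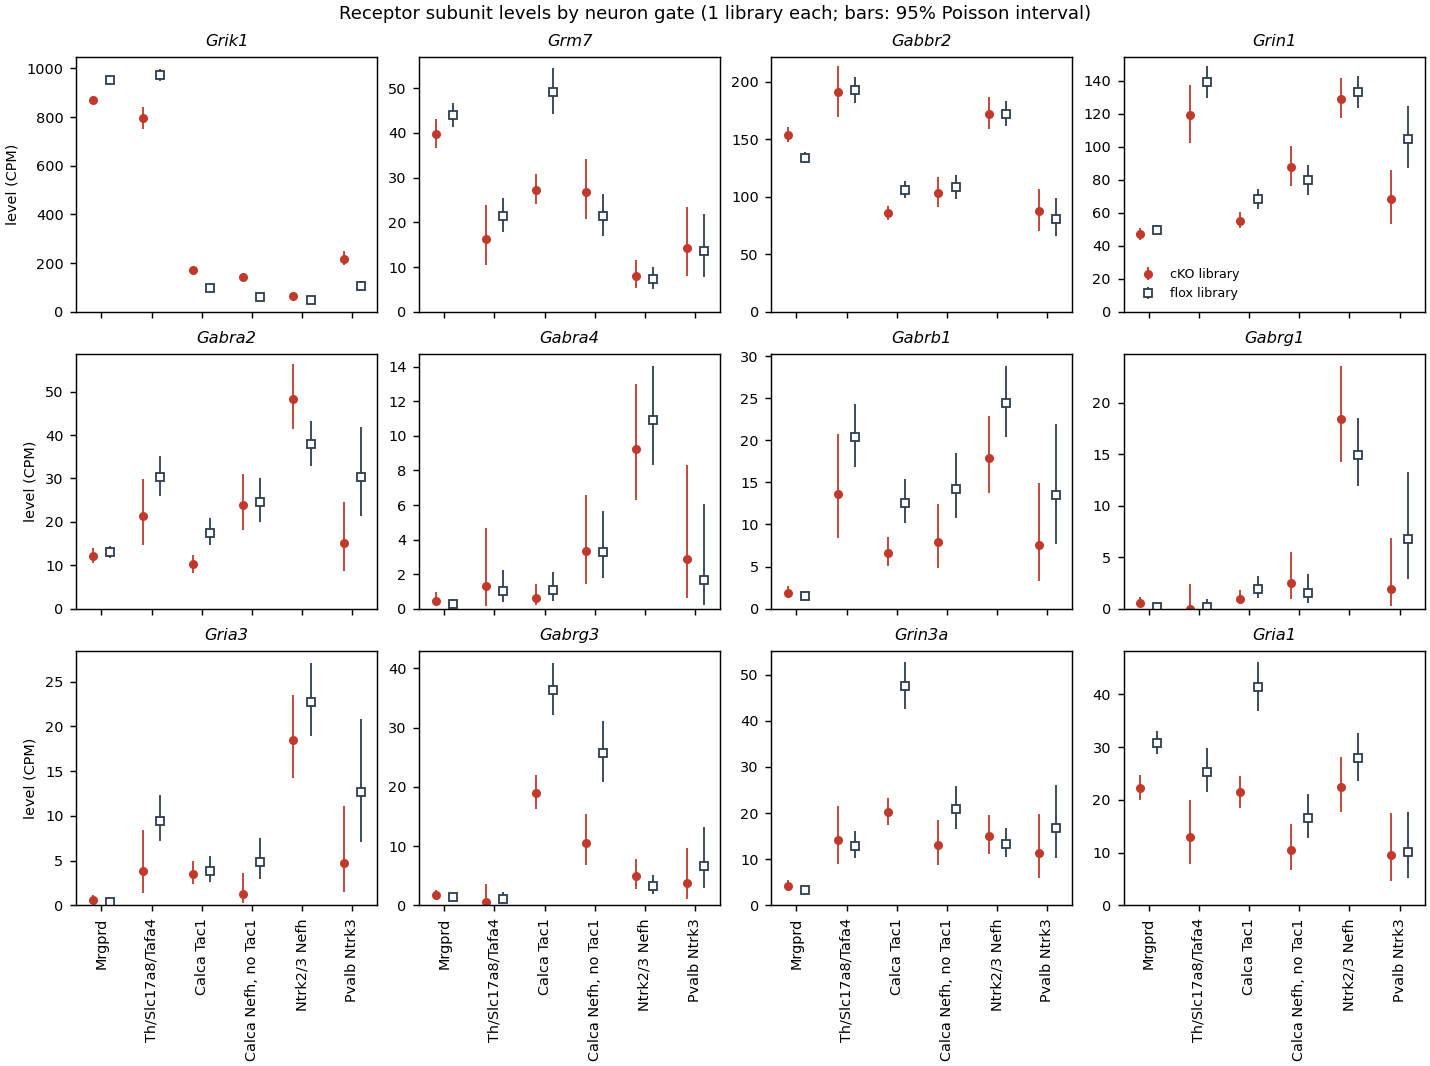
Levels (CPM, linear axes from 0) of 12 receptor members in 6 marker-gated neuron types, cKO as filled circles left of flox as open squares, 1 library each, with bars for the 95% Poisson interval. Grik1 is highest in the Mrgprd and Slc17a8 Tafa4 gates (the second is labelled on the axis with all 3 genes of its rule), Gabra2, Gabra4, Gabrb1, Gabrg1 and Gria3 are highest in the Ntrk Nefh gate, and Gabrg3 and Grin3a are highest in the Calca Tac1 gate, where both are lower in cKO than in flox.

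Both GABA-B genes were present in each gate of neurons. Gabbr1, which binds GABA, stood at 161 CPM in cKO and 146 in flox in the Mrgprd gate and at 168 CPM in cKO and 162 in flox in the Ntrk Nefh gate. Gabbr2, which couples to the G protein, stood at 191 CPM in cKO and 192 in flox in the Slc17a8 Tafa4 gate and at 87.3 CPM in cKO and 80.9 in flox in the Pvalb gate. Neither was called in any gate. After thinning, both genes were detected together in 48.6% [46.0%, 51.2%] of cKO and 52.9% [50.2%, 55.7%] of flox cells among all neurons. Fibroblasts had a Gabbr2 UMI in 1.33% of cKO and 0.985% of flox cells and a Gabbr1 UMI in 11.4% of cKO and 15.2% of flox cells unthinned.

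Among AMPA receptor genes, Gria3 was the one called higher in a gate. It stood at 18.4 CPM in cKO and 22.7 in flox in the Ntrk Nefh gate and at 0.652 CPM in cKO and 0.440 in flox in the Mrgprd gate, an excess of the Ntrk Nefh gate over the others of log2 3.25 [2.71, 3.79] in cKO and 2.96 [2.59, 3.32] in flox. Gria1 was called lower in the Pvalb gate (9.48 CPM in cKO and 10.1 in flox), and Gria4 was called lower in the Mrgprd gate (7.83 CPM in cKO and 7.29 in flox). Gria2, whose edited product makes AMPA channels impermeable to calcium, was called in no gate and stood at 21.7 CPM in cKO and 21.4 in flox in the Mrgprd gate and 39.5 CPM in cKO and 36.4 in flox in the Ntrk Nefh gate. Grid1, which encodes a delta receptor subunit, had 50 UMIs in cKO and 48 in flox over all neurons.

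Detection of NMDA receptor genes was read gene by gene, since these 3′ counts are not compared between genes. Grin1, the subunit that every NMDA receptor needs, was detected in 44.0% [41.4%, 46.6%] of cKO and 49.96% [47.2%, 52.7%] of flox cells among thinned neurons. A Grin2 gene of any kind, which supplies the glutamate site, was detected in 3.26% [2.42%, 4.30%] of cKO and 3.20% [2.31%, 4.32%] of flox cells among the same neurons. Grin2d was called higher in the Calca Tac1 gate (4.60 CPM in cKO and 8.02 in flox) and the Calca Nefh gate (4.61 CPM in cKO and 6.095 in flox), whereas Grin2b had 2 UMIs in cKO and 7 in flox in all neurons. Grin3a, whose product lowers the calcium permeability of NMDA receptors, was also higher in the Calca Tac1 gate, with 20.2 CPM in cKO and 47.4 in flox, against 4.30 CPM in cKO and 3.32 in flox in the Mrgprd gate. A Grin3a UMI was present in 17.5% of cKO and 39.2% of flox cells of the thinned Calca Tac1 gate and in 2.40% of cKO and 3.78% of flox cells of unthinned fibroblasts. Grin3a holds Ppp3r2 and a predicted gene on its own strand, so reads of these cannot be told apart from it where introns were counted.

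Grm4, Grm7 and Grm8 encode metabotropic receptors that inhibit adenylyl cyclase, and each had its own pattern. Grm7 stood at 39.8 CPM in cKO and 44.0 in flox in the Mrgprd gate and was called lower in the Ntrk Nefh gate (8.07 CPM in cKO and 7.28 in flox) and in the Pvalb gate (14.2 CPM in cKO and 13.5 in flox). Grm4 was called higher in all 3 gates with large-fibre markers, among them the Ntrk Nefh gate at 11.2 CPM in cKO and 14.9 in flox, and lower in the Mrgprd gate at 0.587 CPM in cKO and 0.120 in flox. Grm8 was called higher in the Calca Nefh gate (18.9 CPM in cKO and 22.9 in flox) and the Ntrk Nefh gate (11.8 CPM in cKO and 17.3 in flox) and lower in the Calca Tac1 gate (2.78 CPM in cKO and 3.21 in flox). Grm5, which couples to phospholipase C, and Grm3 were rare. Grm5 had 54 UMIs in cKO and 99 in flox, and Grm3 had 79 UMIs in cKO and 94 in flox.

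Counted over the 27 members measured in both libraries, the Ntrk Nefh gate was higher in 11 and lower in 2, where the shares over all 12686 measured genes were 7.66% higher and 6.05% lower. The Mrgprd gate had mostly lower members, with 1 higher and 13 lower, against shares of 2.66% higher and 12.6% lower over all genes. The Calca Tac1 gate had 5 higher and 3 lower (all genes 5.08% higher and 2.87% lower), and the Calca Nefh gate had 4 higher and 1 lower (all genes 3.33% higher and 4.29% lower). The Slc17a8 Tafa4 gate had 1 higher and 4 lower (all genes 2.03% higher and 5.79% lower), the Pvalb gate 3 higher and 5 lower (all genes 4.26% higher and 4.34% lower) and the Nts gate 0 higher and 4 lower (all genes 2.36% higher and 3.15% lower). In the Nts gate the 4 included Gabra2 and Grik1, from a gate of 18 cKO and 17 flox cells.

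Detection of several classes in the same cell followed the levels. An alpha, a beta and a gamma gene were all detected in 32.6% [23.2%, 43.2%] of cKO and 36.9% [26.6%, 48.1%] of flox cells of the thinned Ntrk Nefh gate. The thinned Mrgprd gate had all of them in 1.87% [0.754%, 3.81%] of cKO and 6.44% [4.36%, 9.12%] of flox cells. The share was larger in the Ntrk Nefh gate in both libraries. These intervals take cells of 1 library as separate draws and hold no spread between animals. A kainate gene of any kind was detected in 99.7% of cKO and 100.0% of flox cells of the Mrgprd gate and 75.0% of cKO and 65.5% of flox cells of the Ntrk Nefh gate. Thinning kept 375 cKO and 450 flox cells of the Mrgprd gate and 92 cKO and 84 flox cells of the Ntrk Nefh gate, and a gene not seen in a thinned cell may still be expressed.

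Of the 34 measured members, 1 was higher and 3 were lower in cKO than in flox neurons, taken as a whole, by at least 0.5 on the log2 scale, where 9.93% of all measured genes were higher and 4.23% lower. The median log2 ratio of cKO over flox was -0.22 for the members and -0.02 for all 14976 measured genes. In neurons thinned to 5000 UMIs, 0 of 23 measured members were higher and 14 lower, where 8.12% of all genes were higher and 10.7% lower, and the median was -0.55 for the members and -0.09 for all genes. The member called higher, Grin2a, was counted at 30 UMIs in cKO and 22 in flox (log2 ratio 0.82 [-0.02, 1.69]). The members called lower were Gabrd at 0.661 CPM in cKO and 1.42 in flox (-1.11 [-1.72, -0.53]), Gria1 at 18.0 CPM in cKO and 26.3 in flox (-0.54 [-0.66, -0.43]) and Grm5 at 1.05 CPM in cKO and 1.48 in flox (-0.50 [-1.01, -0.01]).

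Gabbr1 had 143 CPM in cKO and 151 in flox (log2 ratio -0.07 [-0.12, -0.03]), Gabbr2 122 CPM in cKO and 131 in flox (-0.09 [-0.14, -0.05]) and Grik5 39.0 CPM in cKO and 41.0 in flox (-0.07 [-0.15, 0.01]). Grin1 had 65.1 CPM in cKO and 75.2 in flox (-0.21 [-0.27, -0.14]). The lowest ratio over the alternatives was -0.47 for Gabbr1, -0.58 for Gabbr2, -0.51 for Grin1 and -0.98 for Grik1. Grik1 at 457 CPM in cKO and 575 in flox (-0.33), Grik4 at 26.5 CPM in cKO and 33.8 in flox (-0.35) and Gabrb1 at 6.69 CPM in cKO and 8.88 in flox (-0.41) were somewhat lower in cKO without reaching the threshold. All of these ratios rest on neuron groups of unlike depth and makeup: the Mrgprd gate held 420 of 3023 cKO neurons and 472 of 1480 flox neurons. Among neurons of at least 10000 UMIs, 4 of 33 measured members were higher and 1 was lower, where 8.80% of genes were higher and 4.44% lower, and the median was -0.17. The 4 included Gabrg1, Grik3 and Grid1, and Gabrd was again the one lower. With each cell weighted equally, by the mean of the cells' CPM, 2 members were higher and 16 lower, where 11.8% of all genes were higher and 14.8% lower, and the median was -0.48 for the members and -0.10 for all genes.

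**Figure D2:**
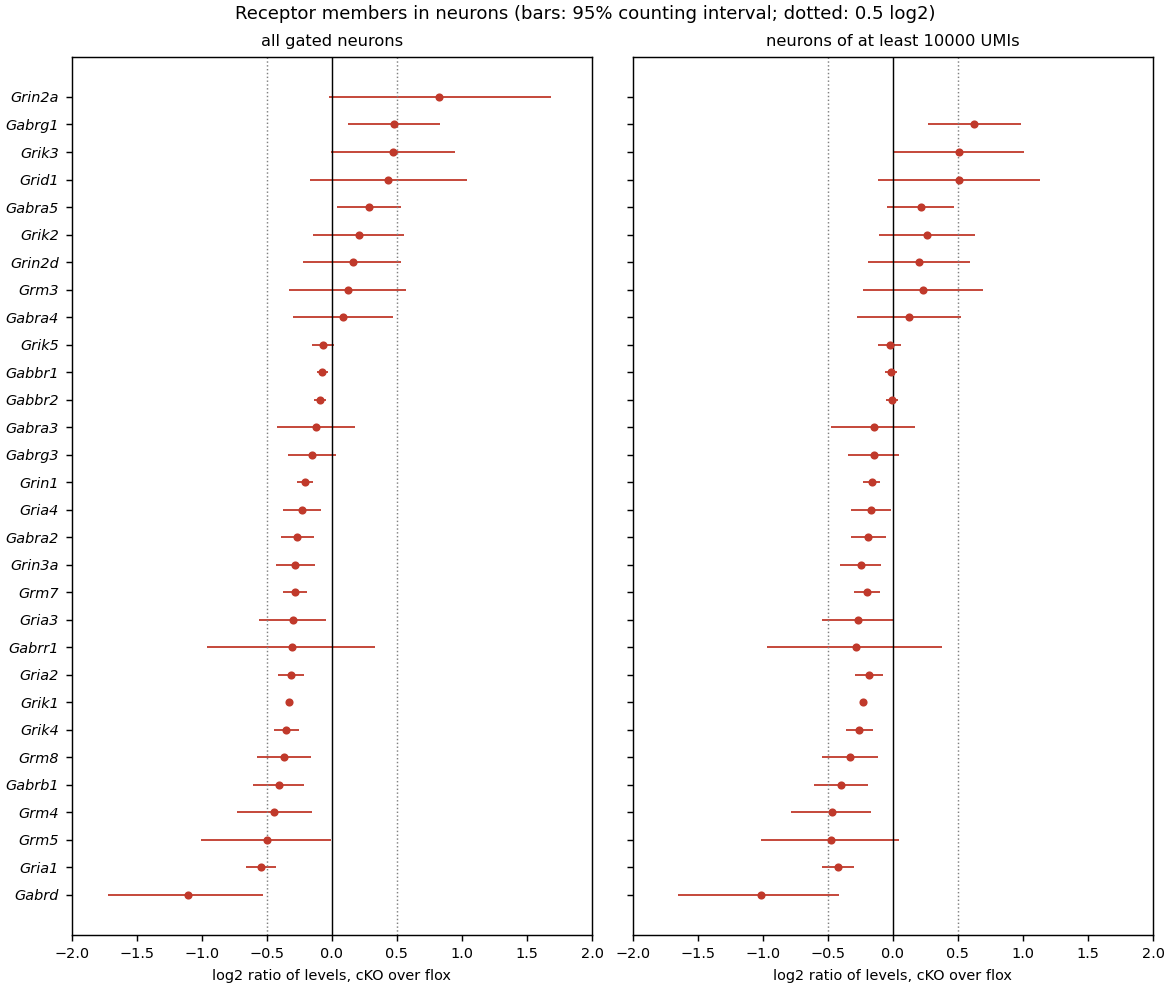
Log2 ratio of levels, cKO over flox, for 30 of the members measured in neurons, in all gated neurons (left) and in neurons of at least 10000 UMIs (right), with bars for the 95% counting interval and dotted lines at 0.5 either way. Grin2a has no point in the right panel, because it was not measured in the deeper neurons. In both panels Gabrd lies farthest below 0, and Gabbr1, Gabbr2 and Grik5 lie close to 0 with short intervals.

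Within gates, the Calca Tac1 gate had the most members called between genotypes. Of its 24 measured members 2 were higher and 12 lower in cKO, where 8.14% of all measured genes were higher and 13.8% lower, and the median log2 ratio was -0.47 against -0.10 for all genes. All of the AMPA genes but Gria3 were lower: Gria2 stood at 20.3 CPM in cKO and 47.2 in flox (-1.21 [-1.48, -0.96]), Gria1 at 21.4 CPM in cKO and 41.3 in flox (-0.95) and Gria4 at 16.5 CPM in cKO and 31.8 in flox (-0.95). Grin3a and Gabrg3, which were higher in this gate than in other neurons, were lower in cKO, with log2 ratios of -1.23 [-1.49, -0.97] for Grin3a and -0.93 [-1.21, -0.65] for Gabrg3. The others called lower were Grm4 (-1.24), Gabrb1 (-0.92), Grm7 (-0.85), Grin2d (-0.80), Gabra2 (-0.78), Grik4 (-0.54) and Gabra3 (-0.51). Grik1 was among those higher in cKO, at 172 CPM in cKO and 96.8 in flox (0.83 [0.70, 0.96]).

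Grik1 was also called lower in this gate than in other gated neurons, as was Grm8. The marker levels of the gate moved as well: Calca stood at 4296 CPM in cKO and 9366 in flox, Tac1 at 1787 CPM in cKO and 2891 in flox, Mrgprd at 23.1 CPM in cKO and 10.4 in flox and Nefh at 208 CPM in cKO and 115 in flox. The 5 satellite glia markers summed to 2307 CPM in cKO and 988 CPM in flox, and the 3 markers of the Mrgprd type to 67.7 CPM in cKO and 56.4 CPM in flox, with none of either list at 0. Median depth was 9240 UMIs in cKO and 40897 UMIs in flox. With cells of at least 10000 UMIs, 10 members were still lower and 2 higher, where 7.03% of genes were higher and 10.6% lower. In thinned cells of this depth an AMPA gene was detected in 43.8% [38.2%, 49.4%] of cKO and 70.6% [62.7%, 77.7%] of flox cells of the gate. The part of other cells' RNA and of the gate's makeup in these differences was not tested.

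The Calca Nefh gate had similar counts from fewer cells, with 1 of its measured members higher and 8 lower, where 8.57% of all measured genes were higher and 8.13% lower. Grik1 was higher, at 141 CPM in cKO and 60.4 in flox (1.22 [0.98, 1.47]), while Gabrg3 at 10.5 CPM in cKO and 25.7 in flox (-1.29 [-1.99, -0.65]), Gabra3 (-1.41) and Grm4 (-1.06) were lower. Calca itself stood at 2879.7 CPM in cKO and 6559 in flox in this gate. The Mrgprd gate, the best covered one, had 1 member higher and 1 lower, where 10.5% of all measured genes were higher and 6.67% lower: Gabra5 (0.55 [-0.15, 1.24]) and Gabrr1 (-1.07 [-2.13, -0.11]), both of few UMIs. Its Gria2 ratio was 0.02 [-0.19, 0.22] and its Grik1 ratio -0.13 [-0.16, -0.10]. The Ntrk Nefh gate had 0 higher and 3 lower, where 6.48% of all measured genes were higher and 5.49% lower, among them Grm8 (-0.55 [-1.11, -0.01]). The Slc17a8 Tafa4 gate had 0 higher and 4 lower, where 9.44% of all measured genes were higher and 12.3% lower: Gria3 (-1.29), Gria1 (-0.97), Gabrb1 (-0.58) and Gabra2 (-0.51). The Pvalb gate had 1 higher and 4 lower, where 6.80% of all measured genes were higher and 18.9% lower, and the Nts gate 1 higher and 1 lower, where 8.62% of all measured genes were higher and 19.6% lower. The ungated neurons had 2 of 31 measured members higher (Gabrg1 and Gabra5) and 3 lower (Gabrd, Grik4 and Grm5), where 10.2% of all measured genes were higher and 6.84% lower. Whether the genotype difference itself differs between gates was not tested, since each gate has 1 library a genotype.

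The genotype ratio of Grik1 differed in sign between the neuron gates. In the gates where Grik1 was high the cKO level was lower: the log2 ratio was -0.13 [-0.16, -0.10] in the Mrgprd gate and -0.29 [-0.38, -0.20] in the Slc17a8 Tafa4 gate. In the gates where it was low the cKO level was higher, with 0.83 [0.70, 0.96] in the Calca Tac1 gate, 1.22 [0.98, 1.47] in the Calca Nefh gate, 0.41 [0.15, 0.67] in the Ntrk Nefh gate, 1.02 [0.70, 1.34] in the Pvalb gate and 1.32 [0.73, 1.90] in the Nts gate. The ungated neurons stood at 359 CPM in cKO and 439 in flox, with a ratio of -0.29 [-0.34, -0.24]. Fibroblasts had 13.9 CPM in cKO and 8.18 in flox (0.76 [0.32, 1.21]). Mrgprd, the marker of a gate where Grik1 was high, stood at 10.5 CPM in cKO and 6.095 in flox in the Calca Nefh gate. It stood at 7.20 CPM in cKO and 2.73 in flox in the Ntrk Nefh gate. The Pvalb gate had 38.9 CPM in cKO and 13.5 in flox of Mrgprd, and the Calca Tac1 gate 23.1 CPM in cKO and 10.4 in flox. In the Nts gate Mrgprd went the other way, at 34.1 CPM in cKO and 60.8 in flox. The part of Mrgprd-type RNA in the Grik1 values was not tested.

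**Figure D3:**
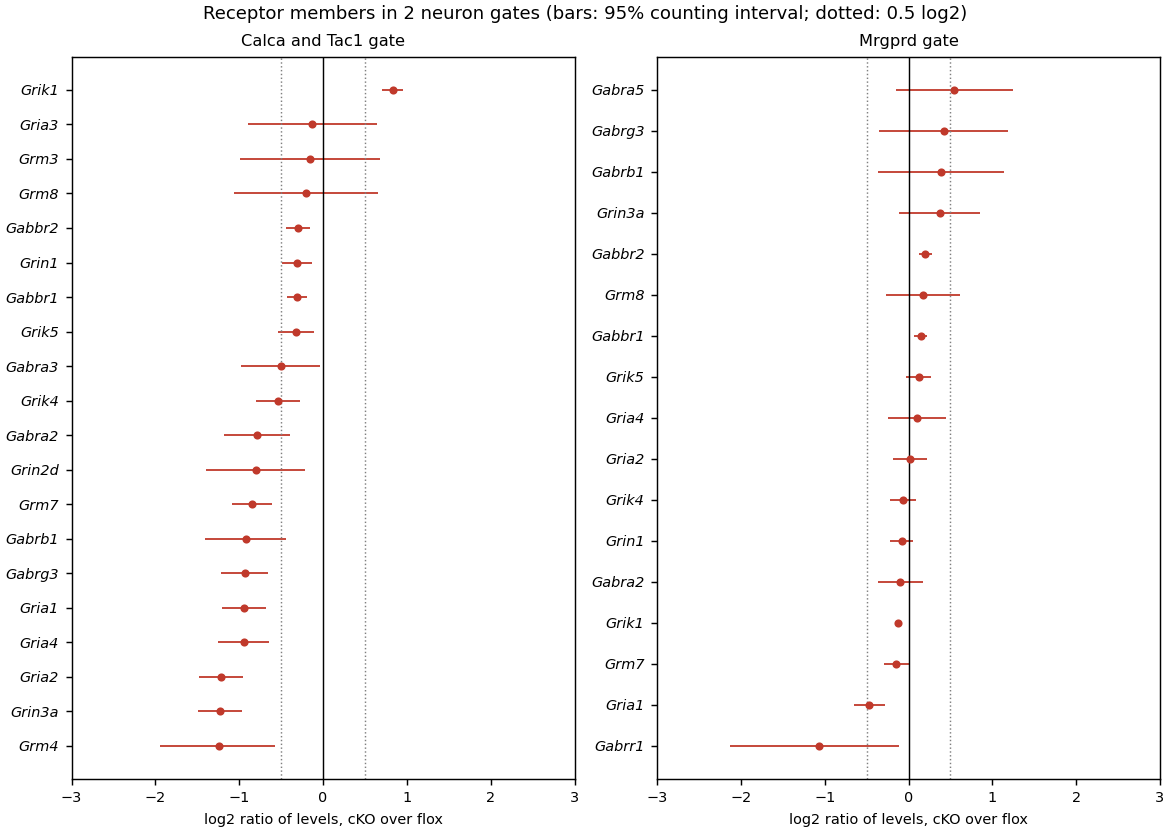
Log2 ratio of levels, cKO over flox, for members named here that were measured in the Calca Tac1 gate (left) and in the Mrgprd gate (right), with bars for the 95% counting interval and dotted lines at 0.5 either way. The members that lie below the lower line with whole intervals in the Calca Tac1 gate include Grin3a, Gria2, Gria4, Gria1, Gabrg3, Grm4 and Grm7. Most members of the Mrgprd gate lie within the lines.

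In glia 13 members were measured, among them Gria2, Gria3, Gria4, Grik1, Grik2, Grik3, Grik5, Gabbr1, Gabbr2 and Grin1. No metabotropic receptor gene reached 50 UMIs. The glia were split into a satellite gate (high Fabp7, 596 cKO and 390 flox cells), a gate of myelinating Schwann cells (274 cKO and 1053 flox cells) and the other glia (1382 cKO and 2002 flox cells). Satellite glia were called higher than the other 2 gates, in both libraries, in members that included Grik3 (log2 2.11 in cKO and 3.12 in flox) and Gabbr1 (1.22 in cKO and 1.86 in flox), and lower in Gria2, where the shares over all genes were 5.74% higher and 3.47% lower. Their levels were 21.9 CPM in cKO and 23.3 in flox for Grik3 and 36.2 CPM in cKO and 53.8 in flox for Gabbr1. Fibroblasts, by comparison, had 0.327 CPM in cKO and 0.727 in flox of Grik3.

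The myelinating Schwann gate was called lower in members that included Gria2, Grik3 and Grik2, where the shares over all genes were 3.65% higher and 12.3% lower. Grik3 had 0 UMIs in that gate in both libraries. Grik2 stood at 13.9 CPM in cKO and 8.16 in flox. The other glia were called higher in Gria2 alone (log2 3.08 in cKO and 1.92 in flox; all genes 1.25% higher and 2.25% lower). Grik2 stood at 31.7 CPM in cKO and 28.0 in flox there. Gria3 was called in none of the 3 gates, at 17.8 CPM in cKO and 21.0 in flox in the other glia and 12.3 CPM in cKO and 20.1 in flox in fibroblasts.

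Gria2 gave the largest genotype difference of any member measured in glia. It was counted at 149 UMIs in cKO and 1350 in flox, or 18.0 CPM in cKO and 57.0 in flox, a log2 ratio of -1.66 [-1.92, -1.42]. It was lower in cKO in each gate. The other glia had 27.9 CPM in cKO and 90.4 in flox (-1.70 [-1.96, -1.44]), and the myelinating Schwann gate 6.59 CPM in cKO and 26.2 in flox (-1.99 [-3.14, -1.05]). Satellite glia had 1.02 CPM in cKO and 11.9 in flox, from under 50 UMIs in both libraries together. After thinning to 2000 UMIs, a Gria2 UMI was present in 4.56% of cKO and 12.5% of flox cells of the other glia and in 0% of cKO and 0.172% of flox cells among fibroblasts. The ratio stayed between -1.76 and -1.59 over all alternatives that gave one.

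In the flox library Gria2 stood at 162 CPM in the OPC gate, 54.1 in the astrocyte gate and 14.0 in the oligodendrocyte gate. It stood at 90.4 CPM in the other glia of that library. The summed marker lists of these central types were lower in cKO than in flox in the other glia. There the 4 OPC markers summed to 10.1 CPM in cKO and 26.4 CPM in flox. Of the 4, 2 were at 0 in cKO and none in flox. The 6 oligodendrocyte markers summed to 145 CPM in cKO and 287 CPM in flox. Of the 6, 2 were at 0 in cKO and none in flox. This oligodendrocyte list includes Mag, also a marker of myelinating Schwann cells. In the myelinating Schwann gate the same list summed to 817 CPM in cKO and 1233 CPM in flox, so its sum is not particular to central glia. In the other glia the 6 astrocyte markers summed to 40.2 CPM in cKO and 57.9 CPM in flox. Of these 6, 1 was at 0 in cKO and none in flox. Olig1 stood at 0 CPM in cKO and 6.61 in flox, Mobp at 0 CPM in cKO and 18.6 in flox and Gfap at 0.202 CPM in cKO and 19.0 in flox. Fibroblasts of the flox library had the same markers, with Mobp at 0 CPM in cKO and 8.90 in flox, and their Gria2 level was 0.654 CPM in cKO and 1.999 in flox. Among glia without a UMI of Olig1, Olig2, Cspg4, Aqp4 or Mog the Gria2 ratio was -1.59. These are 5 of the marker genes, and the part of free RNA and of cells without a UMI of them was not tested.

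Over all glia, 4 members were higher and 2 lower in cKO, where 14.0% of all measured genes were higher and 14.1% lower, and the median log2 ratio was 0.24 for the members and 0.01 for all genes. Gria2 was among the lower. The higher ones included Gabbr2 (3.62 CPM in cKO and 1.44 in flox; log2 1.33 [0.58, 2.09]), Grin1 (4.95 CPM in cKO and 2.20 in flox; 1.17 [0.55, 1.79]) and Grik3 (9.06 CPM in cKO and 4.35 in flox; 1.06 [0.61, 1.501]). Satellite glia were 596 of 2252 cKO and 390 of 3445 flox glia, and within the satellite gate the Grik3 ratio was -0.09 [-0.72, 0.55]. With the 3 glial gates given the same shares in both libraries the ratio of Grik3 was 0.13. Neuron RNA was also present in glia, with Prph, a neuronal filament gene, at 147 CPM in cKO and 159 in flox in satellite glia and 88.5 CPM in cKO and 57.0 in flox in the myelinating Schwann gate, and its part in the Gabbr2 and Grin1 values was not tested.

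Fibroblasts had 3 of 11 measured members higher in cKO (Grin2a, Grin2b and Grik1) and 2 lower (Gria3 and Grik5), where 8.58% of all measured genes were higher and 17.8% lower. No member was measured in the macrophage, endothelial or mural gates.

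Within the satellite gate 0 of 6 measured members were higher and 3 were lower in cKO, where 6.80% of all measured genes were higher and 18.0% lower. They were Gria3 at 14.8 CPM in cKO and 25.3 in flox (-0.78 [-1.49, -0.09]), Gabbr1 (-0.57 [-1.03, -0.12]) and Grik5 (-0.50 [-1.10, 0.09]). In the myelinating Schwann gate Grik2 was higher (0.77 [-0.04, 1.503]) and Gria2 lower, where 15.0% of all measured genes were higher and 15.2% lower. In the other glia Grin1 was higher (0.78 [-0.06, 1.60]) and Gria2 lower, where 9.72% of all measured genes were higher and 18.0% lower.

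**Figure D4:**
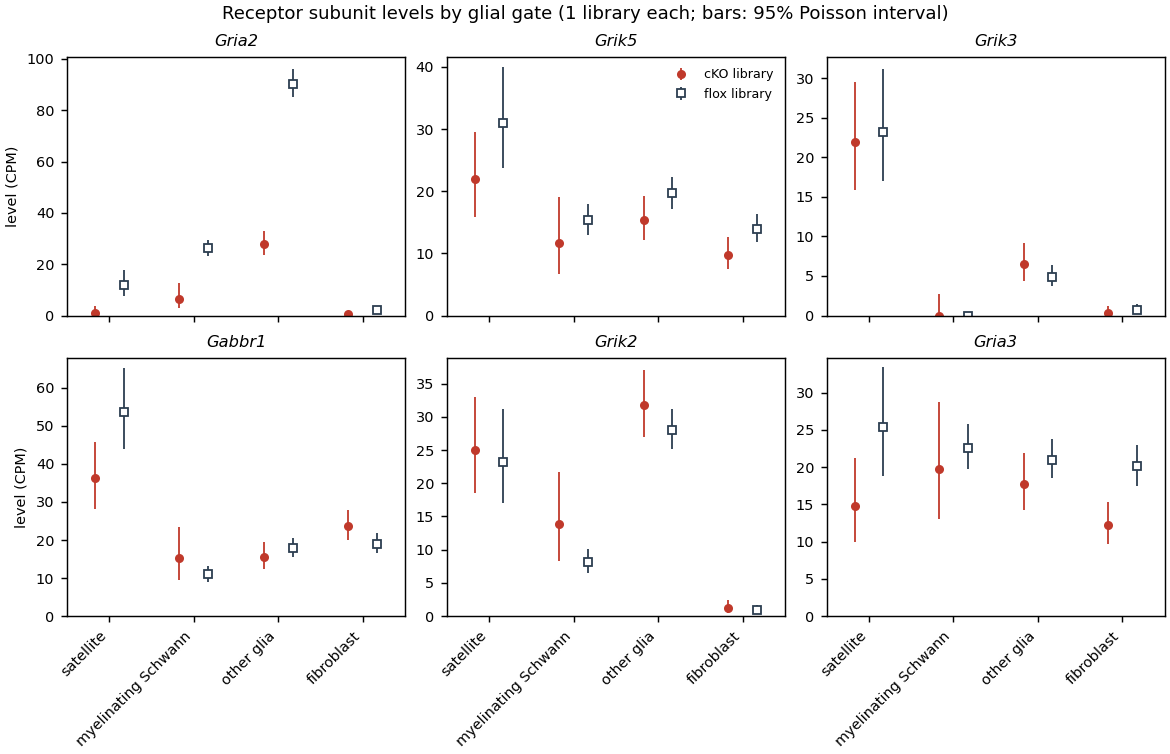
Levels (CPM, linear axes from 0) of 6 members in 3 glial gates and in fibroblasts, cKO as filled circles left of flox as open squares, 1 library each, with bars for the 95% Poisson interval. Gria2 is lower in cKO in each glial gate, Grik3 and Gabbr1 are highest in satellite glia in both libraries, and Grik3 is at 0 in the myelinating Schwann gate.

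The cells gated as central glia, found in the flox library, carried receptor genes at levels unlike those of DRG glia. In the astrocyte gate (158 cells) 13 of 17 measured members were higher than in the flox DRG glia by at least 1 on the log2 scale and 1 was lower, where 16.9% of all measured genes were higher and 13.4% lower. All 4 genes of the chromosome 5 neighbourhood whose promoter windows are printed above were among them. Gabrb1 stood at 177 CPM, against 0.761 CPM in glia (log2 7.86 [7.17, 8.64]). Gabra2 stood at 141 CPM, against 1.06 CPM in glia (log2 7.06 [6.45, 7.72]). Gabra4 stood at 103 CPM, against 0.254 CPM in glia (log2 8.67 [7.51, 10.14]). Gabrg1 stood at 75.7 CPM, against 0.592 CPM in glia. Grin3a at 109 CPM, against 0.634 CPM in glia, and Gabbr1 at 167 CPM, against 18.0 CPM in glia, were also high, and Gria3 was lower at 10.1 CPM.

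The OPC gate (257 cells) had 12 of 15 measured members higher and 0 lower, where 15.6% of all measured genes were higher and 14.1% lower. They included the AMPA genes Gria2 at 162 CPM, against 57.0 CPM in glia and Gria4 at 55.4 CPM, against 5.32 CPM in glia. Grik3 (31.9 CPM), Grin3a (28.2 CPM), Gabrg1 (24.6 CPM) and Grid1 (15.1 CPM) were higher too, and Gabrb1 was not measured in this gate. The oligodendrocyte gate (309 cells) had 4 of 11 measured members higher and 2 lower, where 13.0% of all measured genes were higher and 27.0% lower. Grm4 stood apart at 44.1 CPM, against 0.254 CPM in glia (log2 7.44 [6.28, 8.91]). Gabbr1 at 54.9 CPM, Gria4 at 13.4 CPM and Grik3 at 10.9 CPM were the other 3 higher. Gria2 (14.0 CPM) and Gria3 (1.92 CPM) were lower. The cKO library had 1 cell in the astrocyte gate and none in the other 2, so no comparison of genotypes was possible in these cells.

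**Figure D5:**
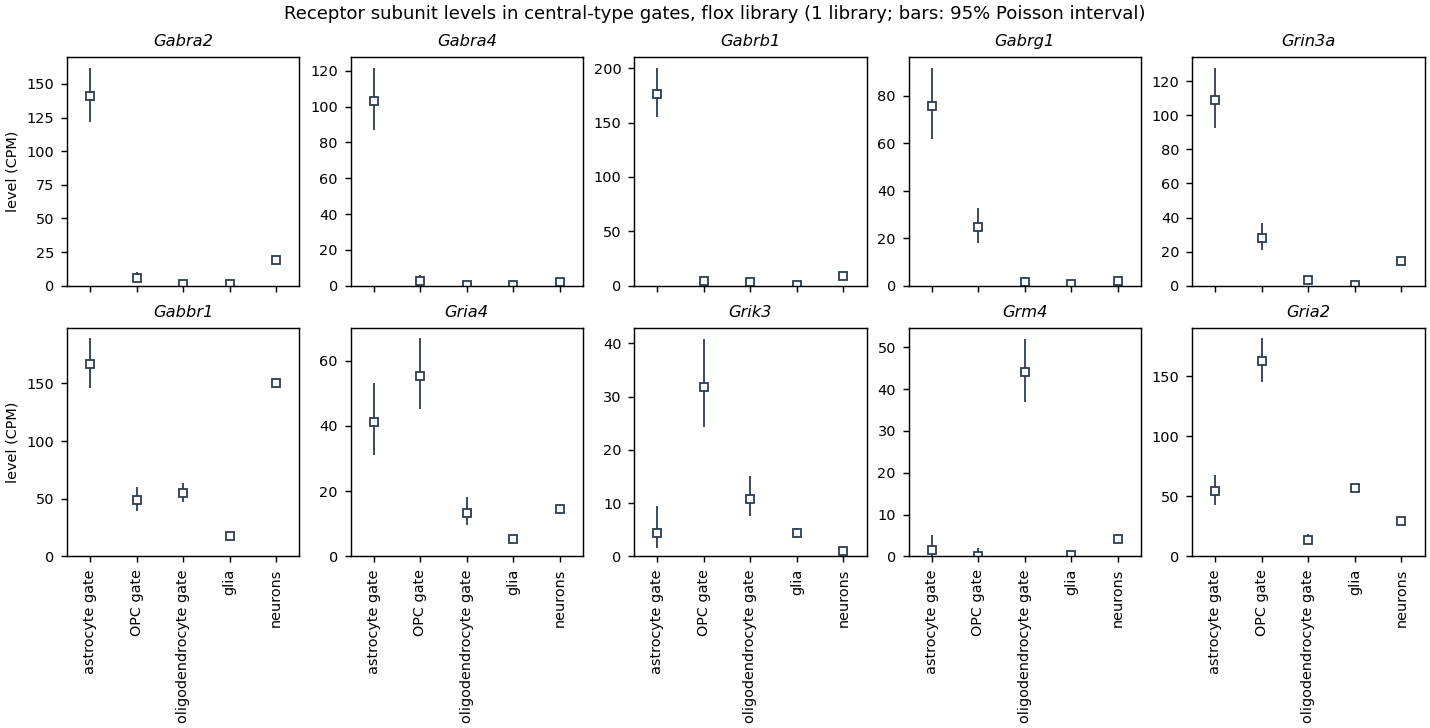
Levels (CPM, linear axes from 0) of 10 members in the astrocyte, OPC and oligodendrocyte gates, DRG glia and neurons of the flox library, 1 library, with bars for the 95% Poisson interval. Gabra2, Gabra4, Gabrb1 and Gabrg1 are highest in the astrocyte gate, as is Grin3a, while Grm4 is highest in the oligodendrocyte gate and Gria2 and Grik3 in the OPC gate.

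Few genes that make or move the 2 transmitters, or act with their receptors, were called in neurons. These lists are read against the same shares of all genes as the members. Of 9 genes of GABA synthesis and transport 5 were measured, 0 higher and 2 lower in cKO: Slc6a13, a GABA transporter, at 0.797 CPM in cKO and 1.36 in flox (log2 -0.78), and Gad1, which makes GABA, at 1.91 CPM in cKO and 2.74 in flox (-0.53). All 8 chloride transport genes were measured and none was called, with a median of -0.17. Of 13 genes of glutamate synthesis and transport, all measured, 2 were higher, Slc1a1 (0.69) and Slc1a5 (0.66), and Slc17a8, a vesicular glutamate transporter, was lower (-0.57). Within the Slc17a8 Tafa4 gate, which held 51 of 3023 cKO and 139 of 1480 flox neurons, Slc17a8 stood at 54.3 CPM in cKO and 53.6 in flox. Of 14 partners of GABA receptors, all measured, Kctd12, a GABA-B auxiliary subunit, was higher at 5.95 CPM in cKO and 3.55 in flox (0.74). Of 35 partners of glutamate receptors, all measured, 4 were higher and 0 lower. They were Cacng8 (0.72), which encodes an AMPA receptor auxiliary subunit, and the postsynaptic scaffold genes Shank2 (0.61), Shank1 (0.55) and Homer3 (0.50). The medians of these last 3 lists were -0.01, 0.03 and 0.08, against -0.02 for all genes.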

How the data were processed

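The deposited files hold raw UMI counts per gene and cell barcode for 2 libraries, made by the authors. Per the file headers the counts come from cellranger 6.1.2, while the submitters' processing notes name Cell Ranger 5.0.1, Scanpy and mm10. The sources used here do not say whether introns were counted, strand was used, or free RNA or doublets were removed. The libraries held 9703 (cKO) and 10014 (flox) barcodes with 78144437 (cKO) and 132620886 (flox) UMIs.

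Barcodes with at least 1000 UMIs, 500 genes and at most 15% mitochondrial UMIs were retained (8435 cKO, 8714 flox). Scrublet's own threshold marked 2 cKO and 0 flox cells, so the highest scores, 0.8% per 1000 cells, were removed instead (569 cKO, 607 flox). Cells were gated on summed marker counts per 10000 UMIs, with thresholds set after seeing the data; the neuron gate needed 60. Of the markers listed, Drgx and Fam19a4 are not gene names in the tables. Counts were summed by gate. CPM have exact Poisson intervals, shares of cells exact Clopper-Pearson intervals, and log2 ratios exact conditional binomial intervals, all for counting error only. With 1 library a genotype no test was made. Between genotypes a member with at least 50 UMIs over both libraries was called at 0.5 log2. Between gates a member needed at least 50 UMIs over the compared gates in each library, and was called at 1 log2 in both. There a count of 0 was set to 3 for calls of lower. Central-type gates were compared with glia in the flox library alone, at 1 log2 and at least 50 UMIs over the gate and glia together. For shares, neurons were thinned to 10000 UMIs and all cells to 2000 UMIs, leaving out shallower cells. TMM factors came from edgeR 4.0.16 and size factors from DESeq2 1.42.0, as alternatives only. The steps ran in Python 3.11.15 with scanpy 1.11.5, scipy 1.17.1 and numpy 2.4.6, and were tested on simulated data. All members entered every count; some are not reported here by name. The others with at least 50 UMIs in a class are described by value, and of the other lists those called in neurons are named. The members, markers and gene lists were chosen with earlier results of these data known.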

Additional observations from a re-analysis of the deposited data

How the results depend on the processing

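No paired analysis was possible because there is 1 library a genotype, and for the same reason no replicate could be left out. In neurons the counts of members higher and lower in cKO were 1 and 3 of 34, with a median log2 ratio of -0.22. Over all genes 9.93% were higher and 4.23% lower. The counts became 5 higher and 7 lower of 46 with at least 1 UMI as the limit, where 21.8% of all genes were higher and 13.0% lower. They were 4 and 1 of 33 in cells of at least 10000 UMIs, where 8.80% of all genes were higher and 4.44% lower. With subtype shares standardised they were 3 and 6 of 34, where 9.23% of all genes were higher and 5.44% lower. With the mean of each cell's CPM they were 2 and 16 of 34, where 11.8% of all genes were higher and 14.8% lower. The median was then -0.48, against -0.10 for all genes. Cells thinned to 5000 UMIs gave 0 and 14 of 23, where 8.12% of all genes were higher and 10.7% lower, with a median of -0.55 against -0.09 for all genes. A stricter gate gave 0 higher and 4 lower of 33 (all genes 8.49% higher and 4.94% lower). Cells of at least 20000 UMIs, chosen after seeing the data, gave 1 higher and 1 lower of 33 (all genes 7.25% higher and 4.78% lower). In glia the counts were 4 and 2 of 13 with a median of 0.24 (all genes 14.0% higher and 14.1% lower). They became 10 and 4 of 22 with at least 20 UMIs (all genes 16.1% higher and 15.5% lower). With at least 1 UMI they were 16 and 11 of 42 (24.2% higher and 24.2% lower). Cells thinned to 2000 UMIs gave 2 and 1 of 9 (10.7% higher and 15.1% lower). Cells of at least 4000 UMIs gave 2 higher and 2 lower of 10 (all genes 14.8% higher and 14.7% lower). Glia without central glial UMIs gave 5 higher and 1 lower of 11 (all genes 15.3% higher and 13.6% lower). Standardised shares of the glial gates gave 2 higher and 2 lower of 13 (all genes 8.08% higher and 16.4% lower), with a median of -0.22. The last 2 settings were chosen after seeing the data. The cause of these shifts was not tested, beyond the number of members measured, which each limit on UMIs sets by construction. TMM factors, DESeq2 size factors and no doublet removal changed these counts by at most 1. Of the 2 medians, that of glia changed sign, under standardised shares alone. Depth limits the members of few UMIs most: Grin2a, Grm5, Gabrd, Gabrr1 and Grid1 in neurons each rest on under 200 UMIs over both libraries.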

Other observations

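Fibroblasts counted NMDA receptor genes that neurons had at low levels. Grin2d stood at 8.66 CPM in cKO and 9.36 in flox in fibroblasts, against 2.18 CPM in cKO and 1.95 in flox in neurons. Grin2a stood at 6.54 CPM in cKO and 3.00 in flox in fibroblasts, against 0.583 CPM in cKO and 0.330 in flox in neurons. Grin2b stood at 5.39 CPM in cKO and 2.91 in flox, against 0.0389 CPM in cKO and 0.105 in flox in neurons. Gabra3, an alpha subunit, was also higher in fibroblasts, at 10.8 CPM in cKO and 9.45 in flox, against 3.09 CPM in cKO and 3.36 in flox in neurons. Grin1 stood at 2.13 CPM in cKO and 1.36 in flox in the same fibroblasts. Whether the reads lie in exons of these genes was not tested.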
